A study of Homo sapiens with 6 samples.

Results

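The genes described here are 10 markers by which stem cells of the colon and of colorectal cancer are recognised or sorted, namely CD44, EPCAM, PROM1, ALCAM, CD24, ALDH1A1, ALDH1A3, LGR5, ASCL2 and BMI1. They were taken by gene name from the 58735 genes of the deposited expression table, and each had 1 entry there. RNA was sequenced from HCT116SCs, a stem-like population obtained from the colorectal carcinoma line HCT116 by magnetic bead sorting for CD44 and then for CD326, the protein that EPCAM encodes. All cells grew as spheres in serum-free DMEM/F12 with EGF, bFGF and B27, and after dissociation they were transfected with siRNA by liposomes and harvested 48 h later. The control group (NC, labelled WT) received a negative control siRNA and the siPSCA group (labelled PSCA knockdown) received siRNA against PSCA, a small GPI-anchored surface protein, with 3 libraries in each group. The comparison asked how the markers of stemness stood when PSCA was targeted. It rests on 1 cell line, and which of several designed PSCA siRNAs was used for sequencing is not given in the sources used here. The titles of libraries siPSCA 2 and siPSCA 3 carry a different HCT number, while every other label of these libraries names HCT116, and both were kept.

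Colorectal cancer stem cells are defined operationally, by surface proteins that allow sorting, by aldehyde dehydrogenase activity and by the capacity to form spheres. CD44 binds hyaluronan, EPCAM is an epithelial adhesion molecule, and PROM1 (CD133), ALCAM (CD166) and CD24 are further surface glycoproteins used to enrich tumour-initiating cells. ALDH1A1 and ALDH1A3 oxidise retinaldehyde to retinoic acid and carry much of the activity read by the usual fluorescent ALDH assay. LGR5 is an R-spondin receptor and ASCL2 a basic helix-loop-helix factor, and both mark the cycling stem cells at the base of the intestinal crypt, while BMI1 is a Polycomb protein linked to self-renewal.

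With siPSCA, PROM1, CD44 and ALCAM transcripts fell and ALDH1A3 rose, whereas EPCAM, CD24 and BMI1 did not pass the test. The fall of ALCAM was not called in every setting described below. The 3 remaining markers, LGR5, ASCL2 and ALDH1A1, had between 0 and 8 reads in every library. Levels are given as FPKM, the reads of a gene scaled to the length of its exons and to the depth of the library, and changes as the log2 fold change (siPSCA minus NC) of FPKM + 1, tested with limma over the 13796 genes whose mean FPKM was at least 1. The adjusted p is that of Benjamini and Hochberg over these genes, and a gene was called at an adjusted p under 0.05. Of the 7 markers tested, 4 were called (57.1%), against 50.7% of all genes tested, so the number of called markers was close to that of any genes. Of these, 1 marker was higher and 3 were lower in siPSCA, against 26.6% and 24.2% of all genes. The groups did not overlap in 5 of the 7 markers, against 64.5% of all genes. The median log2 fold change of the 7 markers was -0.16 and that of all genes tested 0.01. Nothing in the labels says that libraries came from separate cultures, so p-values measure the spread between these libraries only, and an exact permutation test of 3 libraries against 3 cannot fall below p = 0.1.

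The libraries held 16099716 to 17302219 reads on genes. PSCA itself had 4, 12 and 15 reads in NC and 9, 9 and 7 in siPSCA, a ratio of 0.784 with a 95% counting interval of 0.444 to 1.37, so a knockdown was not detectable at this depth, and the siPSCA direction below rests on the labels. NC 3 stood apart from the other NC libraries, at a Euclidean distance of 48.1 and 45.8 (in log2 FPKM over all genes tested) from NC 1 and NC 2, which lay 31.5 apart. Over genes, the log2 fold change followed GC content, taken from the longest transcript of each gene, with a Spearman correlation of 0.66. The departure of NC 3 from NC 1 and NC 2 did so too, with -0.56. Each change below was therefore also estimated without NC 3 and after a smooth trend on GC content and gene length had been removed from every library. With the trend removed, 3 of the 7 markers were called, against 39.7% of all genes. Of the 10 colon epithelial markers examined 8 passed the minimum, with CDX1 at 0 and VIL1 near 0 in all 6 libraries, and of 16 markers of leukocytes, endothelium and fibroblasts only COL1A1 passed it, while CD3E, CD68, PDGFRA and LUM were listed at 0 in all 6. How reads shared between overlapping genes were counted is not stated, so a 0, such as that of CD68, need not mean that the gene was silent. The summed FPKM of these 16 was 4.57 to 7.23 in NC and 7.51 to 7.80 in siPSCA, most of it COL1A1, whose adjusted p in limma was 0.111, and its part in the results was not tested.

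The levels of the markers spanned a wide range, and EPCAM and CD44, on which the cells had been sorted, were the highest in both groups. In NC the mean FPKM fell in the order EPCAM, CD44, ALCAM, CD24, BMI1, ALDH1A3 and PROM1. EPCAM was 1.30 times CD44 in NC and 1.56 times in siPSCA, and CD44 in turn was 4.04 and 3.86 times ALCAM. In siPSCA the order was the same except that ALDH1A3 stood above BMI1. Among these 7 the ranges of neighbouring markers did not overlap within a group, while those of ALDH1A1, LGR5 and ASCL2 at the foot of the order overlapped one another. The 7 markers exceeded 1 FPKM in every library.

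CD44, the hyaluronan receptor (ENSG00000026508, GRCh38 chr11:35138870-35232402, plus strand, 39 annotated transcripts), fell. Its FPKM was 81.1, 79.2 and 87.5 in NC 1, 2 and 3 and 59.6, 60.1 and 62.4 in siPSCA 1, 2 and 3. Every siPSCA library lay below every NC library, and NC 3 was the highest of all. The mean fell from 82.6 ± 4.36 to 60.7 ± 1.51 (SD, n = 3), which gave a log2 fold change of -0.44 ± 0.05 (SE) with a 95% interval of -0.57 to -0.31 and an adjusted p of 0.00193 in limma. Without NC 3 the change was -0.40, and with the GC and length trend removed it was -0.29, at an adjusted p of 0.00202. In bulk RNA, fewer CD44-high cells and less CD44 RNA per cell cannot be told apart. The cells had been sorted on CD44 and EPCAM, and the part of the sort in their levels was not tested. The table counts all CD44 isoforms together, so the standard and variant forms are not distinguished.

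The antisense gene CD44-AS1, which lies within CD44 on the other strand and shares 84 of its 587 exon bases with it, fell more steeply. It held 12.7, 13.4 and 13.7 FPKM in NC and 5.14, 6.13 and 4.86 in siPSCA, with no overlap, and its log2 fold change was -1.17 ± 0.09 (SE, adjusted p = 0.000597 in limma) or -0.80 with the trend removed. AL133330.1, a sense intronic transcript of CD44 that shares none of its exon bases, fell too, from 4.65, 4.16 and 4.53 FPKM to 1.76, 2.24 and 2.73, by 0.76 on the log2 scale (adjusted p = 0.00383 in limma), with a change of -0.48 after the trend was removed. Both were counted from few reads, at most 139 per library for CD44-AS1 and 55 for AL133330.1. Whether the counting used strand is not stated, so reads of CD44 and of its antisense partner cannot be told apart where they overlap, nor can unspliced CD44 RNA and AL133330.1.

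**Figure D1:**
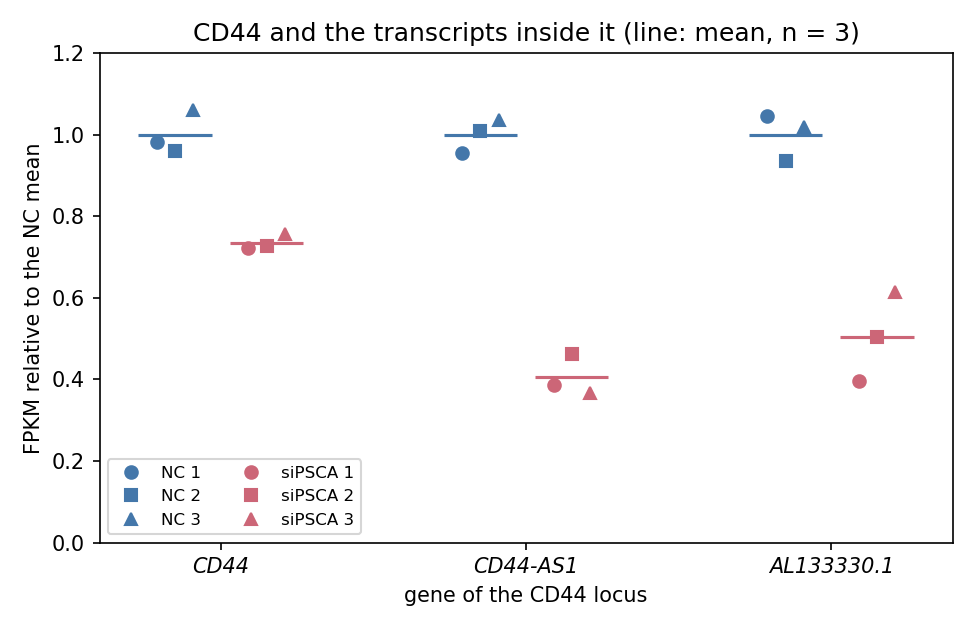
FPKM relative to the NC mean of each gene, on an axis from 0, for CD44 and for CD44-AS1 and AL133330.1, which lie within it, with 1 point per library and a line at the mean (n = 3). The siPSCA points lie below the NC points for all 3 genes.

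EPCAM (ENSG00000119888, chr2:47345158-47387601, plus strand), the adhesion molecule that served as the other sort marker, did not pass the test. Its FPKM was 94.7, 103.6 and 122.9 in NC and 97.3, 94.3 and 93.3 in siPSCA. The groups overlapped, since NC 1 lay within the siPSCA range, and the spread sat in NC, where NC 3 was the highest. The means were 107 ± 14.4 and 94.97 ± 2.10 (SD, n = 3), and the log2 fold change was -0.16 ± 0.10 (SE), with a 95% interval of -0.40 to 0.07 and an adjusted p of 0.199 in limma. Without NC 3 it was -0.06. The coefficient of variation in NC was 13.5%, against 1.47% from read counting alone.

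Set against each other within a library, CD44 and EPCAM gave FPKM ratios of 0.857, 0.764 and 0.712 in NC and 0.613, 0.637 and 0.670 in siPSCA. All siPSCA ratios lay below all NC ratios, with log2 means of -0.65 ± 0.06 and -0.37 ± 0.13 (SD, n = 3). The difference of -0.28 reached p = 0.1 in the 2-sided exact permutation test, the smallest that this design allows, and it was -0.13 with the GC and length trend removed.

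PROM1, the pentaspan glycoprotein CD133 (ENSG00000007062, chr4:15963076-16084378, minus strand), had the largest fall of the 7 tested markers. Its FPKM was 5.16, 4.36 and 4.86 in NC and 2.72, 3.00 and 2.84 in siPSCA, from 564 to 644 reads per NC library and 342 to 397 per siPSCA library. The lowest NC library lay well above the highest siPSCA library. The mean fell by 40.4%, from 4.79 ± 0.404 to 2.86 ± 0.143 (SD, n = 3), and the log2 fold change was -0.59 ± 0.07 (SE, 95% interval -0.77 to -0.41, adjusted p = 0.00206 in limma). It was -0.58 without NC 3 and -0.39 with the trend removed, at an adjusted p of 0.00808.

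ALCAM (CD166, ENSG00000170017, chr3:105366909-105576900, plus strand), an immunoglobulin superfamily adhesion molecule, fell, but not in every setting. Its FPKM was 18.7, 20.0 and 22.7 in NC and 14.9, 15.9 and 16.4 in siPSCA. The groups did not overlap, and NC 3 was again the highest library. The means were 20.5 ± 2.03 and 15.7 ± 0.775 (SD, n = 3), and the log2 fold change was -0.36 ± 0.08 (SE, 95% interval -0.55 to -0.16, adjusted p = 0.0129 in limma). With the GC and length trend removed it was -0.05 ± 0.05 (adjusted p = 0.457), and the longest transcript of ALCAM holds 39.6% GC. Without siPSCA 1 the call was also lost, at -0.32 and an adjusted p of 0.0516.

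CD24 (ENSG00000272398, chr6:106969831-106975627, minus strand), a small mucin-like sialoglycoprotein held by a GPI anchor, had 15.9, 14.8 and 15.8 FPKM in NC and 14.1, 13.8 and 14.0 in siPSCA. The groups did not overlap, but they lay close. The means were 15.5 ± 0.609 and 14.0 ± 0.161 (SD, n = 3), and the log2 fold change of -0.14 ± 0.05 (SE, 95% interval -0.26 to -0.02) had a p of 0.0287 before and 0.0551 after adjustment in limma. With the GC and length trend removed the change was -0.10 (adjusted p = 0.121 in limma), and without NC 3 it was -0.13 (adjusted p = 0.0551). Only when rescaled to TPM was CD24 called, at -0.19 and an adjusted p of 0.0429. CD24 has near-identical pseudogene copies, and how reads shared with them were counted is not stated, so its level is uncertain.

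ALDH1A3, the retinaldehyde dehydrogenase of the ALDH1A class that was expressed here (ENSG00000184254, chr15:100877714-100916626, plus strand), was the only one of the 7 tested markers that rose. Its FPKM was 5.87, 6.89 and 5.72 in NC and 11.0, 11.2 and 11.0 in siPSCA. The siPSCA libraries were nearly equal, and all lay above the highest NC library, NC 2. The mean rose from 6.16 ± 0.639 to 11.1 ± 0.1001 (SD, n = 3), 1.80 times the NC level, with a log2 fold change of 0.76 ± 0.07 (SE, 95% interval 0.58 to 0.93, adjusted p = 0.00108 in limma). It was 0.71 without NC 3 and 0.65 ± 0.06 with the trend removed, at an adjusted p of 0.00094. The antisense gene AC015712.2 covers 27.5% of the exon bases of ALDH1A3 and had 82, 75 and 63 reads in NC and 113, 119 and 119 in siPSCA, beside 569 to 693 and 1073 to 1161 reads for ALDH1A3. Where the exons of these genes overlap, their reads cannot be told apart without strand. The antisense gene lay under the minimum of the test.

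ALDH1A1 (ENSG00000165092, chr9:72900662-73080442, minus strand), the other ALDH1A enzyme among the markers, had 0, 0 and 4 reads in NC and 0, 4 and 0 in siPSCA. The ratio of the summed reads was 0.972, with a 95% counting interval of 0.181 to 5.22, so neither a rise nor a fall was detectable. A count of 0 allowed up to 0.0578 to 0.0627 FPKM (3 reads) in a library, and this limit and the interval cover counting error only. ALDH1A2, which makes retinoic acid in the embryo and is not among the markers, held 41 reads in NC and 26 in siPSCA over the 3 libraries of each group. ALDH1A3 thus made up 96.6% to 99.7% of the FPKM summed over ALDH1A1, ALDH1A2 and ALDH1A3 in every library.

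The promoters of these enzymes differed in base composition. RefSeq windows of 300 bases (GRCh38.p14, 250 before to 50 after a start) were found for 7 of the 10 markers, namely CD44, PROM1, ALCAM, CD24, ALDH1A1, ALDH1A3 and BMI1. The ALDH1A3 window had 81.7% GC and 46 CpG, and 98.6% of 35116 such windows had less GC. The ALDH1A1 window had 40.3% GC and 7 CpG, and 11.8% of windows had less GC. The median over all windows was 58.7% GC and 14 CpG. The first listed windows of CD44, PROM1, CD24, ALCAM and BMI1, all of them expressed, lay between, with 60.7% to 73.3% GC and 18 to 36 CpG. Further windows were listed for some genes and did not all lie between, since the second of BMI1 had 91% GC and 65 CpG and the fourth of PROM1 had 56.3% GC and 6 CpG. Each window was searched on both strands for CCAAT, found in 34.6% of all windows, TATAAA (11.5%), ACGTG, the core of the hypoxia response element (21.4%), and CTTTGA, the core of TCF/LEF sites (12.9%). The bases before the start are printed for ALDH1A1, the marker with the lowest GC and hardly any reads, and for ALCAM and BMI1 as expressed markers with GC-rich promoters, in lower case with any of these motifs in capitals and without bases that GENCODE 29 annotates as exon. The same bases of CD44, ALDH1A3 and the first listed start of PROM1 lie within annotated exons, and no sequence is printed for these genes. Which gene those exons belong to was not examined.
ALDH1A1, chr9:72953057-72953303, minus strand: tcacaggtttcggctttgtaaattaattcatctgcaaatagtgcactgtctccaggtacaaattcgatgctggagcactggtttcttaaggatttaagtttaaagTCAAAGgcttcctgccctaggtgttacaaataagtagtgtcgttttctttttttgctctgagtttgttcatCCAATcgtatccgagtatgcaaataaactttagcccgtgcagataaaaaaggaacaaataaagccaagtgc
ALCAM, chr3:105366659-105366908, plus strand: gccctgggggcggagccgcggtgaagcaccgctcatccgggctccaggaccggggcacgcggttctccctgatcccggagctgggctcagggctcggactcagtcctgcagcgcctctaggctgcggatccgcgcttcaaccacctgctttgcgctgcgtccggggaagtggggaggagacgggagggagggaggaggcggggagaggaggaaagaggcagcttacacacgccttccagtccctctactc
BMI1, chr10:22320849-22321098, plus strand: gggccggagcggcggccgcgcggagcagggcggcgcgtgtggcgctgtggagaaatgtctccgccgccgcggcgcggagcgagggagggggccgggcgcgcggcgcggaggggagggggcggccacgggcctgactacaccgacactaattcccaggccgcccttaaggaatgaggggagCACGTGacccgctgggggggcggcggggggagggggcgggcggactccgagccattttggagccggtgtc
In ALDH1A1 the capitals are CTTTGA on the other strand, at -145 from the start, and CCAAT at -74. ALDH1A3 held CCAAT too, at -71, and none of the other motifs. CD44 held ACGTG at -215, and the first listed window of PROM1 held CCAAT at -53 and ACGTG at -77. Some later windows of PROM1 and CD24 held matches as well. The capitals of BMI1 hold ACGTG on both strands, overlapping in 1 palindrome. ALCAM held none of the 4 motifs. A match describes letters in a window and not a bound factor.

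The genes called among the wider aldehyde dehydrogenase family were all higher in siPSCA. Of the 17 family members outside the markers, 11 passed the minimum, and 6 of them were called, all 6 of them rises. Of all genes, 50.7% were called and 26.6% were called higher. The median log2 fold change over the 11 was 0.22, beside 0.01 for all genes tested. With the trend removed 6 were again higher and none lower, where 39.7% of all genes were called, but they were not the same genes. ALDH3B1 (0.22, adjusted p = 0.0772 in limma) and ALDH1B1 (0.02, adjusted p = 0.750) lost the call, while ALDH2 (0.29, adjusted p = 0.0276) and ALDH7A1 (0.39, adjusted p = 0.00586) gained it. Without NC 3, 8 were higher and none lower, where 7425 of the 13796 genes tested were called. ALDH8A1 lay under the minimum, with 1.10 ± 0.0917 FPKM in NC and 0.710 ± 0.0812 in siPSCA. ALDH16A1, an enzyme that lacks the usual catalytic cysteine, rose from 3.07 ± 0.806 to 8.16 ± 0.648 FPKM (SD, n = 3), which gave a log2 fold change of 1.19 (adjusted p = 0.00222 in limma), or 0.64 with the trend removed. ALDH4A1, which acts in proline breakdown, rose from 1.04 ± 0.286 to 2.89 ± 0.131 FPKM, a log2 fold change of 0.94 (adjusted p = 0.0022), or 0.48 with the trend removed. With no trend removed, ALDH3B1, ALDH3A2, ALDH9A1 and ALDH1B1 rose by 0.63, 0.45, 0.23 and 0.17 on the log2 scale. ALDH18A1, a proline synthesis enzyme with the highest FPKM of the family, stood at -0.03 on the log2 scale (adjusted p = 0.608). Of the FPKM summed over the whole family, ALDH1A3 took 4.603%, 5.21% and 4.29% in NC and 6.77%, 7.08% and 6.76% in siPSCA, without overlap.

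Around ALDH1A3, the retinoid pathway list (20 genes of retinol oxidation, binding, breakdown and reception) had 12 genes tested and 6 called, close to the 50.7% of all genes. Of these 4 were higher and 2 lower, and the median log2 fold change of the 12 was 0.19. RDH10, which makes the retinaldehyde that ALDH1A enzymes use, rose by 0.57 (0.58 with the trend removed), and the receptor partner RXRA rose by 0.53 (0.13 with the trend removed, where the call was lost). CRABP2, which carries retinoic acid to the nucleus, fell from 329 ± 67.3 to 218 ± 1.27 FPKM (SD, n = 3), which gave a log2 fold change of -0.57 (adjusted p = 0.0157 in limma). Without NC 3 its change was -0.42, and with the trend removed it was -0.79. The receptor RARA fell by 0.39 on the same scale (adjusted p = 0.0126), and with the trend removed its change was -0.96.

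The crypt base markers were at the limit of detection. LGR5 (ENSG00000139292, chr12:71439770-71586310, plus strand) had 2, 0 and 0 reads in NC and 4, 8 and 2 in siPSCA. The highest NC library equalled the lowest siPSCA library. The ratio of the summed reads was 6.81, with a 95% counting interval of 1.56 to 61.7 that leaves out the spread between libraries, and in limma over all genes with a read the adjusted p was 0.270. Every library lay under 0.1 FPKM. ASCL2 (ENSG00000183734, chr11:2268495-2270952, minus strand) had 1 read, in siPSCA 2, and 0 in each of the other 5 libraries, where a count of 0 allowed 0.0889 to 0.0964 FPKM. A change of ASCL2 was not detectable at this depth.

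Other genes of the crypt base signature were expressed. Of 29 such genes outside the markers, 19 passed the minimum and 12 were called, against 50.7% of all genes. Of these 7 were higher and 5 lower in siPSCA, the median log2 fold change being 0.17 (0.06 with the trend removed). CDK6, a cyclin-dependent kinase of the entry into S phase, rose from 10.5 ± 0.363 to 18.1 ± 1.62 FPKM (SD, n = 3), which gave a log2 fold change of 0.72 (adjusted p = 0.00125 in limma), or 1.10 with the trend removed. AXIN2, a feedback inhibitor and target of WNT signalling, rose from 6.24 ± 0.499 to 10.5 ± 0.419 FPKM, a log2 fold change of 0.67 (adjusted p = 0.00129). With the trend removed its change was 0.49. SLC12A2, a sodium-potassium-chloride cotransporter, fell by 0.32 on the log2 scale, but its change was -0.01 with the trend removed. The tetraspanin CD9 fell by 0.24, and its change was -0.37 with the trend removed. Of 30 markers of differentiated intestinal cells only 5 passed the minimum and 7 had no read in any library. CDX2, an intestinal homeobox factor, was the only one of these 5 called, where 50.7% of all genes were called. It stood at 2.15 ± 0.426 FPKM in NC and 4.07 ± 0.0961 in siPSCA (log2 fold change 0.70, adjusted p = 0.00387 in limma, or 0.40 with the trend removed).

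BMI1 (ENSG00000168283, chr10:22321211-22331484, plus strand), a RING finger subunit of Polycomb repressive complex 1, did not pass the test. Its FPKM was 9.17, 9.45 and 8.65 in NC and 9.04, 8.01 and 8.86 in siPSCA. The groups overlapped, with the lowest value in siPSCA 2 and the highest in NC 2. The log2 fold change was -0.07 ± 0.06 (SE, 95% interval -0.22 to 0.09, adjusted p = 0.414 in limma), and it turned to 0.19 with the GC and length trend removed, at an adjusted p of 0.0909. The readthrough gene COMMD3-BMI1 shares 23.3% of the exon bases of BMI1 and was listed at 0 in all 6 libraries, and how reads in the shared exons were counted is not stated. Among the 21 other genes of the complex, all tested, 12 were called, against 50.7% of all genes, 6 of them higher and 6 lower, with a median log2 fold change of -0.01. CBX6 (1.31) and CBX2 (0.55), chromobox readers of the complex, were the largest rises, and PCGF5 (-0.71) and PHC3 (-0.57) the largest falls. With the trend removed these 4 changes were 0.92, 0.13, -0.21 and -0.11, those of CBX2 and PHC3 no longer called. In that setting 4 genes of the complex were called higher and 9 lower, where 39.7% of all genes were called.

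The lists of genes that act on or beside the surface markers had called genes in both directions. Of 22 other surface markers of cancer stem cells, 16 passed the minimum and 11 were called, against 50.7% of all genes, 3 of them higher and 8 lower. The median log2 fold change was -0.24, or -0.34 with the trend removed, where 1 was higher and 10 lower and 39.7% of all genes were called. CD55, an inhibitor of complement, fell from 10.4 ± 0.473 to 4.15 ± 0.493 FPKM (SD, n = 3), which gave a log2 fold change of -1.15 (adjusted p = 0.000548 in limma), a larger fall on the log2 scale than that of any marker tested. With the trend removed its change was -0.92. MET, the receptor of hepatocyte growth factor, fell from 45.9 ± 4.11 to 27.6 ± 0.125 FPKM, a log2 fold change of -0.71, or -0.49 with the trend removed. The tetraspanin CD151 rose by 0.93 (0.37 with the trend removed) and the WNT receptor FZD7 by 0.28 (0.10 with the trend removed, where the call was lost).

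On the CD44 axis, which lists genes of hyaluronan turnover, CD44 linkers, its sheddases and its splicing factors, 22 of 25 genes passed the minimum and 14 were called, against 50.7% of all genes, 6 of them higher and 8 lower, with a median of 0.03. HAS3, a hyaluronan synthase, rose from 10.4 ± 0.280 to 18.2 ± 0.287 FPKM, a log2 fold change of 0.75 (adjusted p = 0.000361 in limma). With the trend removed its change was 0.59. The hyaluronidase HYAL2 rose by 0.80, or 0.24 with the trend removed. RDX, which links CD44 to actin, fell from 20.0 ± 1.78 to 11.3 ± 0.344 FPKM, a log2 fold change of -0.77, or -0.41 with the trend removed. ADAM10, a protease that sheds CD44, fell by 0.50 on the log2 scale, but its change was -0.06 with the trend removed.

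Among the EPCAM partners and proteases, 16 of 18 genes passed the minimum and 10 were called, against 50.7% of all genes, 6 of them higher and 4 lower, with a median of 0.12. With the trend removed 3 were higher and 4 lower, where 39.7% of all genes were called. APH1A, a subunit of the gamma-secretase that cuts EPCAM in the membrane, rose by 0.75 (0.47 with the trend removed), and the matriptase gene ST14 rose by 0.71 (0.14 with the trend removed). ADAM17, which sheds the outer part of EPCAM, fell by 0.45, while its change was -0.06 with the trend removed. Of the other colon epithelial markers CLDN4, a tight junction claudin, rose by 0.75 (0.41 with the trend removed) and CDH1, the epithelial cadherin, fell by 0.60. With EPCAM included 4 of the 8 tested were called higher and 1 lower, where 50.7% of all genes were called. With the trend removed 2 were higher and 2 lower, where 39.7% of all genes were called.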

How the data were processed

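RNA of HCT116SCs transfected with NC siRNA or siPSCA was measured in 6 libraries, 3 per group, and groups follow the labels. The authors deposited 1 table of FPKM values per gene on GRCh38, with gene lengths. The identifier, start and end matched GENCODE 29 for each of the 58735 genes. The aligner and the counting program are not given in the sources used here, nor is the strand setting of the counting or the method by which DEGs were called. FPKM multiplied by length was a whole multiple of a step fitted for each library (tolerance 0.01 of a step) in 100% of cases. Division by that step gave back the reads of each gene, from library totals of 16803235 to 18218661. Sequencing was paired-end, so a read as counted here can be a read pair. Antisense partners, readthrough genes and pseudogene copies can take or share reads of CD44, ALDH1A3, BMI1 and CD24.

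The model of limma 3.58.1 (R 4.3.3, lmFit, then eBayes with a trend) took log2(FPKM + 1) of all genes whose FPKM averaged at least 1, with no term but the group. A fold change on this scale understates that of low genes. The Benjamini-Hochberg threshold was 0.05. Members under the minimum were given as reads with exact Poisson or binomial intervals and a floor of 3 reads. The GC and length trend was a loess curve (span 0.3). Ratios and exact permutation tests used Python 3.11.15, scipy 1.17.1 and pandas 2.3.3. The model was also run on simulated counts that held no GC trend and no library standing apart, so that run says nothing on how these affect the calls. All 10 markers are named, and from each list at most the 2 largest rises and 2 largest falls among called genes whose groups did not overlap, with PSCA, genes that overlap a marker and other ALDH and cell type marker genes added where a value turns on them. Markers and lists were chosen with earlier results of these data known. Same-numbered libraries correlated at 0.10, 0.01 and 0.13 in their deviations from the group means, so the numbers were not used to pair samples.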

Additional observations from a re-analysis of the deposited data

How the results depend on the processing

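Over 17 alternatives to each of the 7 tested markers, 119 log2 fold changes in all, 109 kept their direction and their side of the threshold, 6 lost the call, 1 gained it and 3 changed sign. The 3 are those of BMI1, 0.19 with the GC and length trend removed, with or without the replicate block, and 0.12 with the trend removed and without NC 3, a setting chosen after seeing the data, as was leaving NC 3 out of the gene lists. ALCAM lost its call in 5 settings, among them trend removal (-0.05) and leaving out siPSCA 1 (-0.32). CD24 gained one as TPM. When a call needed p under 0.05 before adjustment and a log2 fold change over 0.5 in size, which CD44 does not reach, 2 markers and 3434 genes were called. Called genes numbered 7001 as reported, 7380 by limma-voom on the recovered reads, 4627 (without siPSCA 1) to 7425 (without NC 3) when 1 library was left out, 4622 with the trend removed and the replicate block, and 6725 with the replicate block alone, where 4 markers were called. The sources do not say that numbers pair the samples. NC 1 and NC 3 correlated best with the siPSCA library of the same number (0.10 and 0.13), and NC 2 with siPSCA 1 (0.04). The log2 ratio of CD44 to EPCAM differed by -0.13 with the trend removed. No ratio of ALDH1A3 to ALDH1A1 could be computed, since ALDH1A1 had no read in 4 of 6 libraries. The retinoid list had 2 genes called without a minimum on FPKM, against 6, where 5601 of 34391 genes were called. The intestinal differentiation list had 3 called with the trend removed, against 1, where 39.7% of all genes were called. The causes were not tested. Depth limits LGR5, ASCL2, ALDH1A1 and PSCA, at 15 reads or fewer per library.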
